A study of Mus musculus with 18 samples.

Results

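The genes described here code for the nuclear-encoded subunits of the mitochondrial oxidative phosphorylation system. They were taken as the protein-coding genes whose symbols begin with Nduf (complex I), Uqcr (complex III), Cox4 to Cox8 (complex IV) or Atp5 (complex V), together with Sdha, Sdhb, Sdhc and Sdhd (complex II). This gave 91 of the 36172 genes listed, with 44 assigned to complex I, 4 to complex II, 8 to complex III, 18 to complex IV and 17 to complex V. The symbols also bring in 6 complex I assembly factors (Ndufaf1 to Ndufaf6) and 2 genes classed here as related proteins (Atp5s and Atp5sl), which leaves 83 subunits. Atp5sl was placed with complex V by its symbol alone. Ndufa4, now known to belong to complex IV, was placed with complex I by its symbol and is counted there throughout. All 91 have a transcript length in the reference annotation. Of these genes, 89 could be tested, and the 2 that could not were Cox7b2 and Cox8c, the testis isoforms of complex IV subunits. The filter (over 20 normalised counts in every library of at least 1 group) was passed in all 4 groups by 88 genes and in 1 group by Cox8b.

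The RNAseq libraries were made from the brains of Cx3cr1-Cre/Ert2+; NuTRAP+ mice, in which tamoxifen starts the expression of a ribosomal protein carrying EGFP wherever the Cx3cr1 promoter is active, in brain in microglia and other macrophages. All animals carried both alleles, received tamoxifen on 5 days at about 3 months of age, and 3 to 4 weeks later were injected intraperitoneally with LPS at 5 mg/kg or with the vehicle PBS. Tissue was taken 24 h after the injection. From 1 hemisphere of each animal the cleared lysate was kept as input, and ribosomes pulled down with an anti-GFP antibody (translating ribosome affinity purification, TRAP) gave the positive fraction. The comparisons ask how LPS altered the transcripts in each fraction, and which transcripts were higher in the tagged ribosomes than in whole brain. There were 4 libraries of input from PBS animals, 4 of input from LPS animals, 4 of the positive fraction from PBS animals and 5 of the positive fraction from LPS animals. The driver is 1 promoter, no Cre-negative animal is among these libraries, and the PBS animals are the only controls.

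The 17 libraries held 22968939 to 35123345 counts, and an 18th, the input of LPS animal 271, held 1252 counts and was left out. The animals were 2 females and 2 males given PBS, and 4 females and 1 male given LPS, so sex was not balanced over treatment. All 10 microglial marker genes were higher in the positive fraction than in input, with a median log2 fold change of 4.32 in PBS animals. The sum of 10 neuronal markers stood at 231788 to 270798 normalised counts in the positive fraction of PBS animals and at 226552 to 244279 in their input, ranges that overlapped. Of these markers 2 were higher and 0 lower in the positive fraction. All 10 oligodendrocyte markers were lower there (median -2.39), and of 10 astrocyte markers 1 was higher and 4 lower (median -0.25). Summed neutrophil markers went from 279 to 580 normalised counts in the positive fraction of PBS animals to 11417 to 27674 in that of LPS animals. The part of these other transcripts in the results below was not tested. In such bulk libraries, fewer cells of a type and less RNA per cell cannot be told apart.

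Oxidative phosphorylation passes electrons from NADH (complex I) and succinate (complex II) through complexes III and IV to oxygen, and complex V, the ATP synthase, uses the proton gradient built on the way to make ATP. Complexes I, III, IV and V combine mitochondrially coded core proteins with nuclear-coded subunits, while complex II is nuclear-coded throughout. In macrophages and microglia, LPS is known to shift energy metabolism toward glycolysis, and succinate oxidation by complex II has been tied to inflammatory signalling. The mitochondrially coded subunits were not analysed here.

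In the positive fraction, few of these transcripts changed 24 h after LPS, and no complex moved as a block. Of the 89 genes tested, 2 rose and 2 fell, with a log2 fold change beyond 0.32 in either direction (the fold limit used throughout) and an adjusted p under 0.05 (edgeR's quasi-likelihood test with Benjamini-Hochberg adjustment over 14803 genes), against 19% of all genes that rose and 14.9% that fell. The median log2 fold change was 0.10 over these genes and 0.01 over all genes, and 66 of the 89 had a fold change above 0, against 7522 of 14803 overall. Without regard to the size of the change, 11 passed at an adjusted p under 0.05 and 21 at an unadjusted p under 0.05. Scaling by library totals gave 2 higher and 4 lower, and TMM factors gave 3 higher and 1 lower.

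The transcript that rose most was Atp5g2 (Entrez gene 67942, chr15:102662868-102671047, minus strand, mm10). It is 1 of 3 genes, with Atp5g1 and Atp5g3, that code for the same mature c subunit, the protein that forms the rotating ring of ATP synthase. In the positive fraction of the PBS animals 268, 272, 273 and 506, Atp5g2 stood at 2291.2, 2225.2, 2666.6 and 2157.9 normalised counts. In that of the LPS animals 266, 267, 270, 271 and 507 it stood at 3457.7, 4072.1, 3464.8, 4158.2 and 3946.9. Every LPS library was above every PBS library, and the log2 fold change was 0.71 ± 0.09 (SE; adjusted p = 7.4e-06 with edgeR), a 1.64-fold rise. In input the gene did not follow: 1946.1 to 2543.5 normalised counts in PBS animals and 1930.9 to 2222.5 in LPS animals, which overlapped, with a log2 fold change of -0.05.

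Sdhd (Entrez gene 66925, chr9:50596340-50603849, minus strand), a membrane anchor subunit of succinate dehydrogenase, was the other gene that rose. Its PBS libraries of the positive fraction held 2662.5, 2689.7, 2967.0 and 3078.9 normalised counts and its LPS libraries 3498.1, 3921.9, 3712.4, 4252.1 and 3825.2. The groups did not overlap, and the log2 fold change was 0.43 ± 0.08 (adjusted p = 0.000295), or 1.35-fold. In input the log2 fold change was 0.04. The calls for Atp5g2, Sdhd and the assembly factor Ndufaf5 held without each of the 17 libraries in turn and in all 12 other settings tried.

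The other c subunit genes and complex II subunits moved less. Atp5g1 had a log2 fold change of 0.32 ± 0.09 (adjusted p = 0.00973), which before rounding was just short of the fold limit. For Atp5g3, the most abundant of the 3, the value was 0.21. Sdhc, the second membrane anchor, reached 0.23 (adjusted p = 0.0353) and Sdhb, the iron-sulfur subunit, 0.22 (adjusted p = 0.0698), while Sdha, the flavoprotein that oxidises succinate, was at -0.12. Members of 1 complex thus had values on both sides of 0.

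Neither gene that fell in the positive fraction is a subunit. Ndufaf5, an assembly factor of complex I, stood at 832.0 to 1067.9 normalised counts in PBS animals and at 641.7 to 782.7 in LPS animals. These ranges did not overlap, and the log2 fold change was -0.44 ± 0.09 (adjusted p = 0.000728). Atp5s, related to the coupling factor B of ATP synthase, stood at 283.6 to 376.1 and 226.7 to 301.4, ranges that overlapped, with -0.32 ± 0.12 (adjusted p = 0.0423). In a limma fit on log2 values with the libraries of 1 animal kept as a block, the Atp5s value did not pass (adjusted p = 0.0646). That fit changed the test as well as the block. In the 17 edgeR fits that each left out 1 library, the Atp5s value passed in 11 (-0.39 to -0.26). Over the 6 assembly factors and 2 related proteins the median was -0.17, beside 0.11 over the 81 subunits tested. The 29 assembly factors outside the symbols used here had a median of 0.06, with 5 higher and 2 lower, so the contrast covers only these 8 genes.

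By complex, the median log2 fold change in the positive fraction was 0.08 for complex I, 0.23 for complex II, 0.18 for complex III, 0.06 for complex IV and 0.13 for complex V. The 7 nuclear core subunits of complex I lay between 0.00 for Ndufv1, which binds NADH, and 0.27 for Ndufs3, and none passed. Ndufa12, an accessory subunit, was the highest in complex I at 0.29 ± 0.10 (adjusted p = 0.0259), under the fold limit. In complex III, Uqcrq had 0.26 and Uqcr10 had 0.25, both small accessory subunits, and Uqcrh, the hinge protein, had -0.17. In complex IV the subunits with a mean of 100 or more normalised counts ran from Cox5a at -0.04 to Cox8a at 0.21, and none passed. Apart from Atp5g2 and Sdhd, no subunit passed in either direction.

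**Figure D1:**
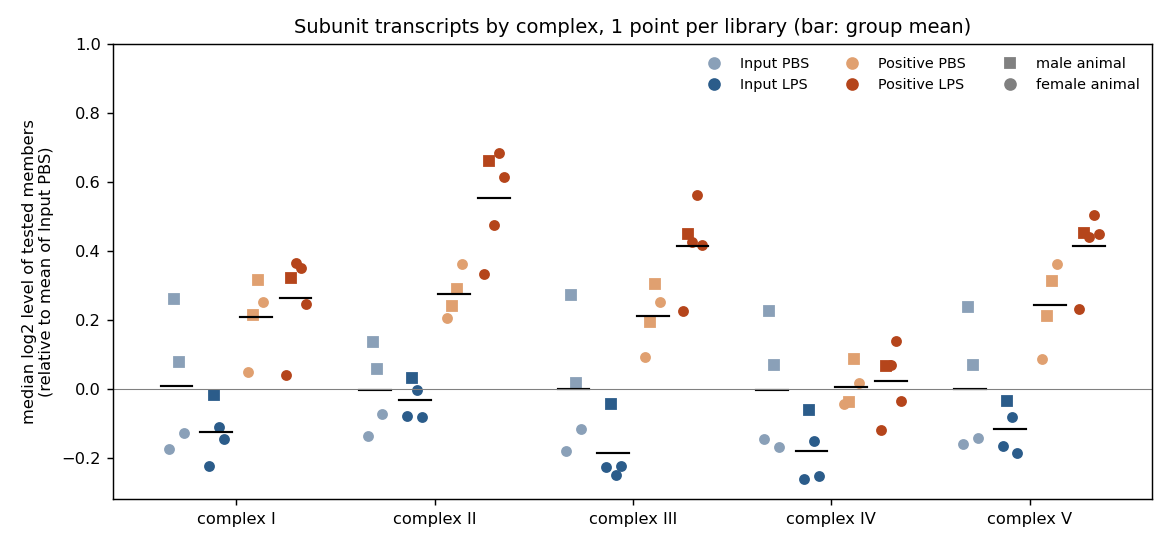
Median log2 level of the tested members of each complex in each library, relative to the mean of the input libraries of PBS animals, with 1 point per library, squares for males, circles for females and a bar for the group mean. In complexes I, II, III and V both group means of the positive fraction lie above both of input, the step from PBS to LPS in the positive fraction is from 0.27 to 0.55 in complex II, and in complex IV the group means of the positive fraction are 0.01 and 0.02.

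Promoter letters were compared for the genes whose LPS effect differed between the fractions (described further on), since promoters of respiratory genes are known for sites of NRF1 and of ETS factors such as GABP. RefSeq promoter entries (GRCm38.p6) exist for 75 of the 91 genes. The 250 bases before the transcript start were searched on both strands. The NRF1 letters GCATGCGC were found in 9 of the 75 (12.0%), in 4.51% of the tested genes with an entry and in 2.56% of all 27025 entries. The ETS letters CCGGAAG were found in 13 of 75 (17.3%), 13.8% and 7.83%, and the YY1 letters AAGATGG in 2 of 75 (2.67%), 4.86% and 5.18%. For 5 of the 6 genes there is an entry, and 4 of them hold an NRF1 or ETS match. They are printed below 5′ to 3′ along the gene's own strand, which is the minus strand in each case, as 30 bases around the match, with the match in capitals. The Atp5g2 window (chr15:102671070-102671099) has the NRF1 letters on both strands, overlapping, 42 to 33 bases upstream of the start. Those of Sdhd (chr9:50603878-50603907), Uqcr11 (chr10:80406870-80406899) and Atp5e (chr2:174464186-174464215) have the ETS letters 46 to 40, 66 to 60 and 102 to 96 bases upstream.
Atp5g2: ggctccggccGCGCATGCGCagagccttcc
Sdhd: accgtctcctgcCTTCCGGttcacgcttca
Uqcr11: tttctctcctccCCGGAAGtagatgtcaat
Atp5e: ctacggccacagCTTCCGGtagccgctcgg
The ETS match reads in the gene's direction in Uqcr11 and in the opposite direction in Sdhd and Atp5e. Cox8a has an entry with neither motif in this window. The share of tested genes with either motif was not computed. Whether the genes printed here hold a match more often than others was not tested.

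In input, which samples all cells of the hemisphere, most values after LPS lay below 0 but few passed. Of the 89 genes 0 rose and 4 fell, against 7.16% of all genes that rose and 5.26% that fell. The median log2 fold change was -0.15, beside 0.00 over all genes, and 79 of the 89 were below 0, against 7321 of 14803. At an adjusted p under 0.05 alone there were 6, and at an unadjusted p under 0.05 there were 22. The medians were -0.14 for complex I, -0.03 for complex II, -0.20 for complex III, -0.20 for complex IV and -0.13 for complex V.

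The clearest of the 4 was Ndufc1, a small accessory subunit of complex I. It stood at 936.0, 1183.5, 1111.1 and 964.0 normalised counts in the input of PBS animals 268, 272, 273 and 506 and at 796.3, 890.4, 734.8 and 763.0 in that of LPS animals 266, 267, 270 and 507. The groups did not overlap, and the log2 fold change was -0.40 ± 0.10 (adjusted p = 0.00834). Ndufs5, another accessory subunit of complex I, had -0.36 ± 0.11 (adjusted p = 0.0392). Uqcr11, a small accessory subunit of complex III, had -0.34 ± 0.11 (adjusted p = 0.0488), and Cox7a1, the muscle isoform of a complex IV subunit, -0.71 ± 0.22 (adjusted p = 0.0393) from only 61.9 to 82.5 normalised counts in PBS animals. In the limma fit with the libraries of 1 animal as a block, Uqcr11 (adjusted p = 0.0677) and Cox7a1 (adjusted p = 0.0933) did not pass. Ndufaf2, an assembly factor, did (-0.47, adjusted p = 0.0289). Test and block changed together there, so these changes cannot be credited to the block alone. The complex I core subunits had a median of 0.01 in input, Sdhd 0.04 and Atp5a1, the α subunit of the F1 head, 0.08. At the ends of the scale stood Ndufaf6, an assembly factor, at 0.28 and Cox8b, at 14.0 to 22.1 normalised counts in LPS animals, at -0.89, and neither passed. In complex III the highest was Uqcrc2, a core protein, at 0.09, and in complex V the values ran from -0.30 for Atp5k, a small membrane subunit (adjusted p = 0.0408, under the fold limit), to 0.19 for Atp5sl. Among complex IV genes with enough counts they ran from -0.29 for Cox6a2 to -0.02 for Cox7a2l.

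Markers of other cells moved in the same input libraries. Of 10 oligodendrocyte markers 8 fell after LPS in input (median -0.71), with sums of 111512 to 174273 normalised counts in PBS animals and 71297 to 100252 in LPS animals. All 7 neutrophil markers tested rose there (median 2.00), and neuronal markers gave 0 higher and 0 lower of 10 (median -0.19). The part of these cells in the input values of the oxidative phosphorylation genes was not tested.

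Sex moved with these input values as well. Among input libraries of PBS animals, the per-library median over the tested genes was 0.07 and 0.24 in the 2 males and -0.17 and -0.13 in the 2 females, relative to the mean of that group. Among input libraries of LPS animals it was -0.03 in the male and -0.22 to -0.12 in the 3 females. Short transcripts as a class split by sex in the same direction in these libraries (values further on). The part of transcript length in the split of these genes was not tested. In the females alone, a comparison chosen after the data were seen, the median LPS effect in input was -0.02 and none passed, with 0 higher and 0 lower. Over all genes that fit gave 455 higher and 277 lower, beside 1060 and 779 with both sexes. With sex as a covariate the median over the 89 genes was -0.10 and 3 of them fell.

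**Figure D2:**
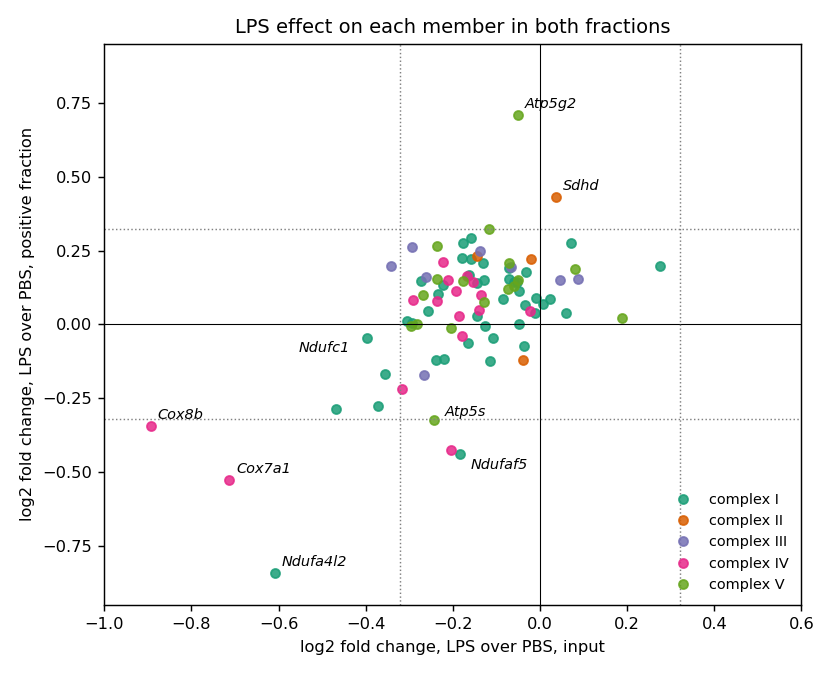
Log2 fold change of LPS over PBS for each tested member in input (horizontal) and in the positive fraction (vertical), coloured by complex, with dotted lines at the fold limit (0.32). Most points lie to the left of 0 and slightly above 0, and Atp5g2 (0.71) and Sdhd (0.43) stand apart at the top with input values of -0.05 and 0.04.

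Between the positive fraction and input, the share of these genes that was higher in the positive fraction was near that of all genes in PBS animals and above it in LPS animals. In PBS animals 19 of the 89 were higher and 3 lower there than in input, against 21% and 18.8% of all genes, and the median log2 fold change was 0.19 beside 0.00 over all genes. In LPS animals 56 were higher and 0 lower, against 27.6% and 25.8%, with a median of 0.44 beside -0.03. All 19 were also higher in LPS animals, and 37 passed only there. The counts in PBS animals depended on the processing, since library totals gave 2 higher and 3 lower, removal of the length trend described further on gave 5 higher and 3 lower, and library totals moved the median of all genes to -0.12. In LPS animals library totals gave 34 higher and 2 lower, with all genes at -0.20. Leaving out the input of PBS animal 272 raised the PBS count of passing genes from 22 to 35, and leaving out that of animal 268 lowered it to 14.

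In complex I, most core subunits were higher in the positive fraction of both treatments. The share of higher accessory subunits was near that of all genes in PBS animals and above it in LPS animals, and none of the 6 assembly factors was higher. In PBS animals 5 of the 7 nuclear core subunits of complex I passed, led by Ndufv1 (0.46 ± 0.09, adjusted p = 0.000588), and in LPS animals all 7 did, or 2 of 7 (Ndufs8 and Ndufv1) with the length trend removed. Ndufs8, a core iron-sulfur subunit, reached 0.77 in LPS animals, Ndufs7 0.56, and Ndufs1, the largest iron-sulfur subunit, 0.32. For Ndufs1 and for Ndufv2 (0.33) the estimate under the animal block, without animal 271, dropped to 0.30, below the fold limit, with adjusted p = 0.000758 and 0.00352. Of the 31 genes tested as accessory subunits 6 were higher in PBS animals (19.4%) and 21 in LPS animals (67.7%), against 21% and 27.6% of all genes. These 31 were taken by symbol and include Ndufa4, now known to belong to complex IV, which passed in LPS animals (0.40). Only Ndufab1 (0.54), Ndufb7 (0.46) and Ndufs4 (0.36) of the accessory subunits were still higher in LPS animals with the length trend removed. Before that removal, the highest accessory subunit in LPS animals was Ndufb7 at 0.82 ± 0.13 (adjusted p = 3.22e-05). Its input libraries of LPS animals held 1429.2 to 1963.8 normalised counts and its positive libraries 2645.3 to 3331.0, with no overlap. None of the 6 assembly factors was higher, and Ndufaf4 was lower in PBS animals (-0.36 ± 0.08, adjusted p = 0.00104). Of 29 assembly factors outside the symbols used here, 4 were higher and 1 lower in PBS animals. In LPS animals 6 of the 29 were higher and 1 lower (median 0.18).

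In complex II, Sdhb was higher in the positive fraction of both treatments. Its input libraries held 2684.0 to 3537.1 normalised counts in PBS animals and its positive libraries 3705.8 to 4524.8, with no overlap and a log2 fold change of 0.46 ± 0.10 (adjusted p = 0.00112). In LPS animals the value was 0.70, and Sdhd (0.63) and Sdhc (0.62) passed as well. Sdha was at 0.30 in PBS animals (adjusted p = 0.00089) and 0.22 in LPS animals (adjusted p = 0.00468), both under the fold limit. In complex III the core proteins Uqcrc1 (0.39 and 0.50) and Uqcrc2 (0.37 and 0.44) passed in both treatments, and Uqcrfs1, the Rieske iron-sulfur protein, passed in LPS animals (0.47). Uqcrb, which lies near the ubiquinone site, went from 0.33 to 0.75 and Uqcrq from 0.21 to 0.77. Uqcrh did not pass in either treatment (0.13 and 0.23). Removing the length trend left Sdhb, Sdhc, Sdhd, Uqcrb, Uqcrc1 and Uqcrq as the higher genes of complexes II and III in LPS animals.

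Fewer complex IV genes passed. Of the 16 tested 0 were higher and 2 lower in PBS animals, and 5 were higher in LPS animals, with medians of -0.01 and 0.19. Cox8a, the ubiquitous isoform of the smallest subunit, was lower than in input when PBS animals were compared, with 4788.4 to 6280.0 normalised counts in the positive fraction beside 6218.2 to 8054.5, a log2 fold change of -0.40 ± 0.09 (adjusted p = 0.00148). In LPS animals it was at 0.03. Cox4i1, which is the most abundant complex IV transcript per length, was at 0.02 and 0.25, Cox6c at -0.03 and 0.19, Cox7c at -0.13 and 0.20, and Cox6a1, the ubiquitous Cox6a isoform, at -0.13 and 0.06, none of which passed the fold limit. Cox5a was the highest of the abundant complex IV genes in PBS animals (0.30 ± 0.10, adjusted p = 0.0182), under the fold limit. Those that passed in LPS animals were Cox6b1 (0.67), Cox6a2 (0.66), Cox7b (0.53), Cox5b (0.47) and Cox5a (0.44). None of these still passed with the length trend removed, where they ran from 0.08 for Cox5a to 0.30 for Cox6b1. Cox8b, the muscle isoform, was lower in PBS animals (-1.253 ± 0.48, adjusted p = 0.0415) at only 1.9 to 26.8 normalised counts in the positive fraction.

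In complex V, 4 of 17 genes were higher in the positive fraction of PBS animals and 14 of 17 in LPS animals, and the 3 that did not pass in LPS animals were Atp5j, Atp5s and Atp5sl. Of the 5 genes of the F1 head, 2 passed in PBS animals (Atp5a1 and Atp5b). All 5 passed in LPS animals, Atp5a1 (0.53), Atp5b (0.56), Atp5c1 (0.48), Atp5d (0.55) and Atp5e (0.68), which code for the α, β, γ, δ and ε subunits, and 2 of them, Atp5a1 and Atp5b, still passed with the length trend removed. Atp5l, a small membrane subunit, reached 0.81 ± 0.11 (adjusted p = 6.73e-06). Atp5g2 had the largest value of all 89, at 0.87 ± 0.09 (adjusted p = 2.3e-07) in LPS animals, but 0.10 in PBS animals. Outside the F1 head, only Atp5g1 (0.59), Atp5g2 (0.52) and Atp5l (0.42) were still higher in LPS animals with the length trend removed.

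**Figure D3:**
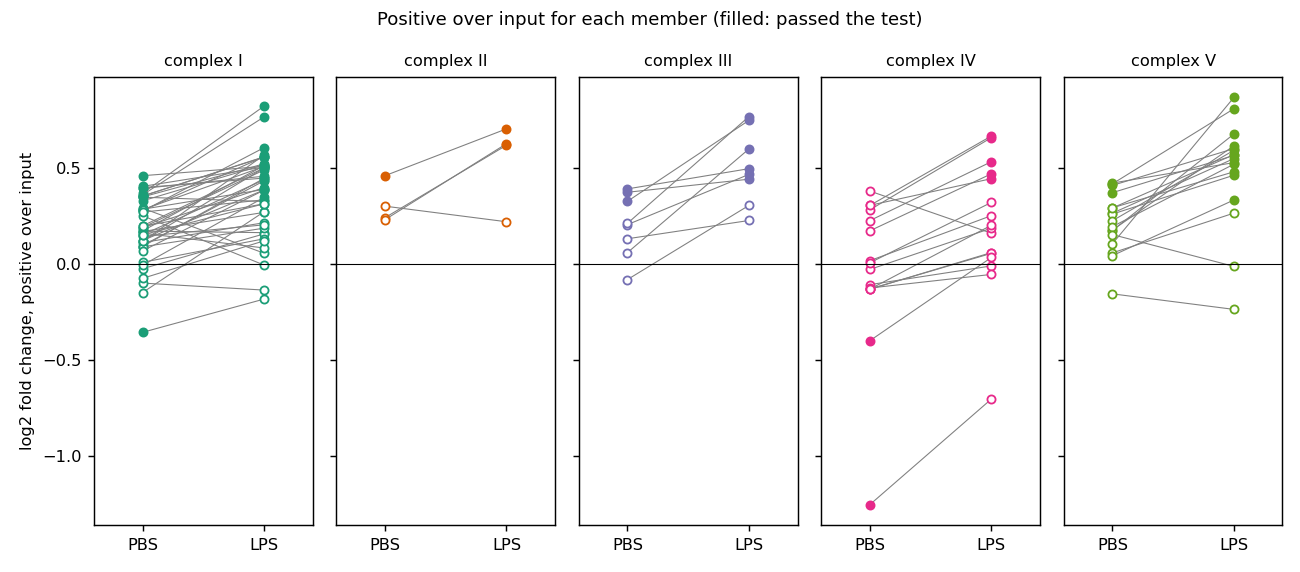
Log2 fold change of the positive fraction over input for each tested member, by complex, with PBS animals on the left and LPS animals on the right of each panel and a line joining the 2 values of a gene. Filled points passed the test, and they make up 14 of 17 genes of complex V and 28 of 44 of complex I in LPS animals but 5 of 16 of complex IV. Complexes were assigned by symbol, so Ndufa4 is among the filled points of complex I.

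That 37 genes passed only in LPS animals does not show that they differed between treatments, so the difference of the LPS effect between the fractions was tested directly. It passed for 6 of the 89 genes, all higher, and for 0 that were lower, against 5.46% and 1.42% of all genes. The median difference on the log2 scale was 0.21, beside -0.02 over all genes, and 28 of the 89 had an unadjusted p under 0.05. With the animal as a block, a fit without animal 271, 12 passed, among them Atp5g1 (0.41, adjusted p = 0.00958), Ndufa12 (0.38), Uqcrb (0.38), Ndufb6 (0.36) and Sdhc (0.35). Calls rose over all genes as well, from 808 higher and 210 lower of 14803 in the main fit to 1309 and 599 with the block. In females alone, 0 of the 89 passed, and their median was 0.14. That fit gave only 54 higher and 20 lower over all genes.

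Of the 6, Atp5g2 had the largest difference, 0.76 ± 0.13 (adjusted p = 0.00147), and in females alone it was 0.70 (adjusted p = 0.0664). Uqcrq, a complex III subunit next to cytochrome b, came next with 0.56 ± 0.13 (adjusted p = 0.0128). In the positive fraction its LPS libraries held 3612.1, 3847.3, 3451.8, 3891.0 and 3674.3 normalised counts, all above the PBS libraries at 2895.6, 3040.9, 3386.2 and 2997.4. In input its LPS libraries held 2062.0, 2422.3, 2087.8 and 2113.8 and its PBS libraries 2321.2, 3274.0, 2596.3 and 2451.0, with 1 LPS library, the male's, inside the range of the PBS libraries. The difference for this gene thus combined values of opposite sign, 0.26 for the positive fraction and -0.29 for input. The same signs were seen for Uqcr11 (difference 0.54 ± 0.15, adjusted p = 0.0397), Atp5e (0.50 ± 0.15, adjusted p = 0.0462) and Cox8a (0.43 ± 0.12, adjusted p = 0.0419), whereas for Sdhd (0.40 ± 0.11, adjusted p = 0.043) input was at 0.04. Atp5g2 and Uqcrq passed without each of the 17 libraries in turn, and the other 4 each passed in 6 of those 17 fits, with values of 0.34 to 0.62 over them. At the other end, the difference was -0.26 for Ndufaf5, -0.08 for Sdha, 0.07 for Uqcrc2 and Cox7a2l, and -0.17 for Atp5sl, while Ndufb7 at 0.45 was the highest in complex I, and none of these passed.

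**Figure D4:**
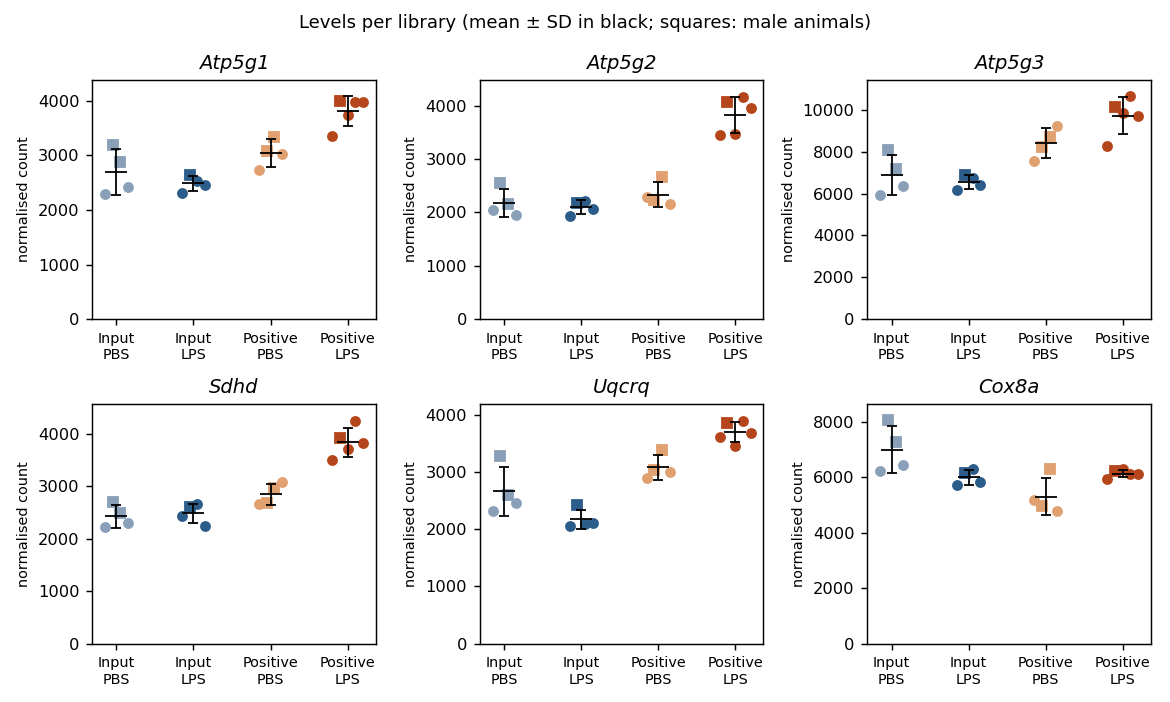
Normalised counts per library of the 3 c subunit genes, Sdhd, Uqcrq and Cox8a in the 4 groups, with mean ± SD in black, squares for males and circles for females. Atp5g2 is level in input and in the positive fraction of PBS animals (1930.9 to 2666.6) and higher in every positive library of LPS animals (3457.7 to 4158.2), while Cox8a is lowest in the positive fraction of PBS animals.

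Since Atp5g1, Atp5g2 and Atp5g3 give the same mature protein, their shares were computed from counts per kb of transcript. In the positive fraction, Atp5g2 made up 19.9 ± 1.9% (SD, n = 4) of the 3 in PBS animals, with a range of 17.4 to 21.5%, and 25.9 ± 1.2% (n = 5) in LPS animals, with a range of 23.9 to 27.1%. The ranges did not overlap. Atp5g3 went from 72.9 ± 2.1% to 67.0 ± 1.3% and Atp5g1 stayed at 7.15 ± 0.34% and 7.12 ± 0.20%. In input Atp5g2 held 22.0 ± 1.1% in PBS and 22.2 ± 0.4% in LPS animals. The LPS difference in share was therefore seen in the positive fraction, where the gene moved from rank 54 to rank 28 of the 91 by mean counts per kb.

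The tissue-restricted isoforms stayed minor in every group. Per kb of transcript, Cox4i2, the isoform known from lung and hypoxic cells, held 0.39 to 0.57% of the Cox4 pair as a group mean, and Cox6a2, the muscle isoform, 1.41 to 2.13% of the Cox6a pair. Cox6b2, the testis isoform, held 1.15 to 1.961%, Cox7a1 2.35 to 3.95% beside Cox7a2, and Cox8b 0.26 to 0.69% beside Cox8a. Ndufa4l2, a paralogue induced in hypoxia, held 0.52 to 1.02% beside Ndufa4, a protein now known to belong to complex IV although its symbol places it in complex I. Ndufa4l2 had the lowest log2 fold change with LPS in the positive fraction, -0.84, without passing, at 32.2 to 141.0 normalised counts. Cox7a2l, a supercomplex factor related to Cox7a, had log2 values from -0.13 to 0.07 over the 5 comparisons, and none passed. Cox8c was listed at 0 in all 4 positive libraries of PBS animals. The most abundant member per kb was Atp5b in all 4 groups, with group means from 15870 normalised counts per kb in the input of LPS animals to 23468 in their positive fraction, followed by Cox4i1, the ubiquitous Cox4 isoform.

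Most of these transcripts are short, and short transcripts as a class stood highest in the positive fraction of LPS animals. The median length was 838 nt for the 89 genes and 2908 nt for all genes tested. In each library, the median level of genes of 1000 nt or less minus that of longer genes, set against the mean of input from PBS animals, was, as a log2 value, 0.27 to 0.41 in the positive libraries of LPS animals and 0.05 to 0.24 in that of PBS animals, without overlap. In input it ran from -0.15 to 0.21 and was higher in males. It was 0.07 and 0.21 in PBS males, -0.15 and -0.13 in PBS females, 0.07 in the LPS male and -0.15 to -0.10 in LPS females. Over all genes the median LPS effect in the positive fraction went from 0.21 at 500 nt or less to -0.05 above 5000 nt. The median of the positive fraction over input in LPS animals went from 0.41 at 750 to 1000 nt to -0.28 above 5000 nt. Among the 914 tested genes of 1000 nt or less, 291 rose and 112 fell with LPS in the positive fraction.

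Beside genes of their own length, the oxidative phosphorylation genes had lower, equal or higher medians depending on the length class and comparison. Of the 54 tested members of 1000 nt or less, 1 rose and 0 fell with LPS in the positive fraction (median 0.10), beside a median of 0.16 over the 914. The 297 genes of that length with a mean of 1000 or more normalised counts gave 118 that rose and 22 that fell (median 0.21). For the positive fraction over input in LPS animals, 33 of the 54 were higher (median 0.44), beside 442 of the 914 (median 0.37) and 205 of the 297 (median 0.56). The members thus lay below short genes of high abundance in both comparisons. That set left out neither the members nor the cytosolic ribosomal protein genes (described further on) of that length and abundance. The part of the ribosomal protein genes in its counts and medians was not tested. By narrower classes, the 28 of 500 to 750 nt had a median LPS effect in the positive fraction of 0.14, equal to the 0.14 of all 304 genes of that length, and the 12 of 500 nt or less had 0.00 beside 0.21. For the positive fraction over input in LPS animals, the 9 of 1500 to 2000 nt had 0.50 beside 0.14, and the 28 of 500 to 750 nt had 0.44 beside 0.37. When the length trend of each library was removed before fitting, LPS animals had 16 genes above and 4 below input in the positive fraction (median 0.15) and PBS animals 5 and 3 (median 0.09). The medians by complex in LPS animals then were 0.11 for I, 0.42 for II, 0.29 for III, -0.19 for IV and 0.27 for V. Cox8a turned from 0.03 to -0.35 (adjusted p = 0.000216). Atp5g2 (0.56, adjusted p = 4.46e-06) and Sdhd (0.34, adjusted p = 0.000296) were still higher after LPS in the positive fraction, and 8 genes were lower. Those that are not subunits were Ndufaf5, Atp5s, Ndufaf2 and Ndufaf3. The subunits were Uqcrh (-0.35, adjusted p = 2.77e-05), Ndufs5 (-0.35, adjusted p = 0.000243), Cox7a1 (-0.75, adjusted p = 0.00842) and Ndufa4l2 (-0.96, adjusted p = 0.0253). None of these subunits had passed with the trend left in. Counts were low for Cox7a1 (29.4 to 80.3 normalised counts in the positive libraries) and Ndufa4l2 (32.2 to 141.0), and PBS and LPS libraries overlapped for both. For the difference between fractions 3 were then higher, Atp5g2, Uqcrq and Atp5g1, and 1 lower, Ndufaf5, with a median of 0.02.

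**Figure D5:**
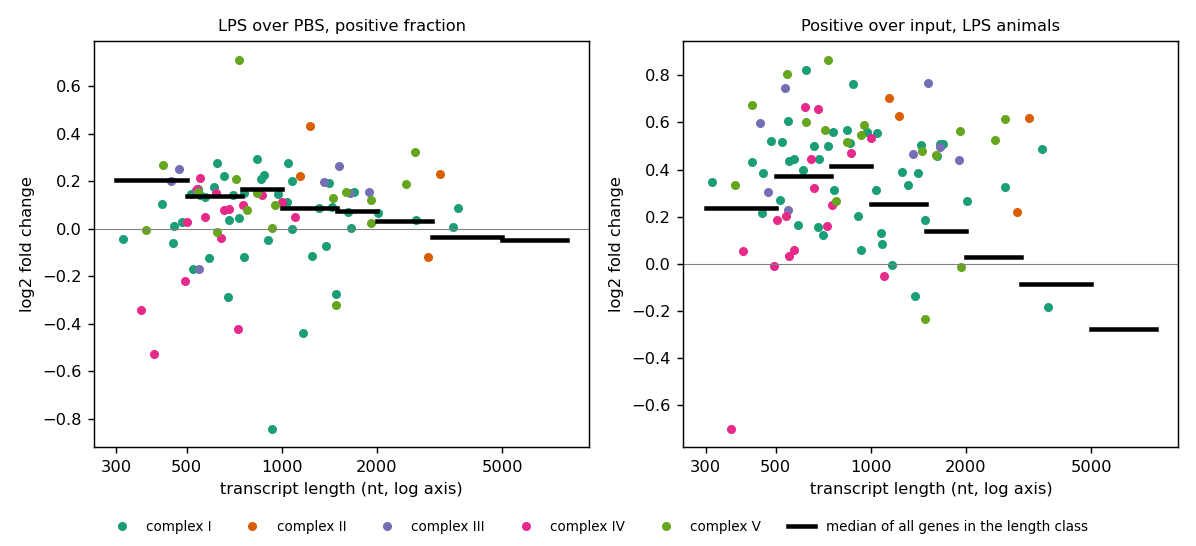
Log2 fold change of each tested member against its transcript length (log axis), for LPS over PBS in the positive fraction (left) and the positive fraction over input in LPS animals (right), with black bars for the median of all tested genes in each length class. The bars are highest among the classes up to 1000 nt and fall above that length, to -0.05 on the left and -0.28 on the right, and Atp5g2 lies above the bar of its class in both.

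Other mitochondrial genes and the cytosolic ribosome were counted in the same fits, where 19% of all genes rose and 14.9% fell with LPS in the positive fraction and 27.6% were higher there than in input in LPS animals. These lists were chosen with results of these data known. Of 80 cytosolic ribosomal protein genes, short transcripts with a median of 786 nt, 78 rose and 0 fell with LPS in the positive fraction (median 0.69), and 1 rose in input (median 0.02). Of 76 mitochondrial ribosomal protein genes, which serve translation of the mitochondrially coded subunits, 23 rose and 0 fell in the positive fraction (median 0.22), and 58 were higher in the positive fraction than in input in LPS animals. Of 21 genes for outer membrane, carrier and import proteins 6 rose (median 0.25). The 14 enzymes of the tricarboxylic acid cycle, which supplies NADH and succinate, gave 1 that rose and 0 that fell (median -0.01), and 8 were higher in the positive fraction of LPS animals than in input. Of 15 regulators of mitochondrial biogenesis 3 rose, and of 29 assembly factors outside the symbols used here 5 rose and 2 fell, shares near those of all genes for the genes that rose. Cytochrome c, the carrier between complexes III and IV, was at 0.13 for the positive fraction and -0.31 for input, and its difference of 0.44 passed. Microglial markers gave 2 higher and 5 lower in the positive fraction after LPS (median -0.36), neuronal markers 0 and 6 (median -0.38), and endothelial and mural markers 1 and 4 of 9 (median -0.59), so genes of several cell types moved in the same libraries, and their part in the values above was not tested.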

How the data were processed

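RNAseq libraries of input and positive fraction were polyadenylated-RNA, strand-specific and paired-end. The authors aligned reads to mm10 in Strand NGS, quantified RefSeq genes and normalised with DESeq. The authors deposited estimated counts per gene (81.1% of nonzero values not whole), which were rounded here, and log2 values normalised by the authors, used only as an alternative with limma. No per-sample column was left unused. Size factors (0.766 to 1.32) were medians of ratios over 15766 genes with a count in all 17 libraries. The 4 groups were fitted together with edgeR 4.0.16 (quasi-likelihood test, R 4.3.3, 13 residual degrees of freedom), on 14803 genes over 20 normalised counts in every library of a group. Genes passed at an adjusted p under 0.05 and a fold change of 1.25, the limits of the study's methods. Fold changes are log2 with a prior count. Libraries of 1 animal share its number, and the numbers were taken to pair the samples. The deviations of such pairs from group means correlated at 0.14 to 0.51. Libraries of different animals were not correlated, so the pairing itself was not tested. The block was a fixed animal effect in edgeR within animals and limma's duplicate correlation (0.44, limma 3.58.1) for LPS effects. Alternatives were DESeq2 1.42.0, TMM, library totals, no filter, sex, length and left-out libraries. The named genes were the catalytic and most abundant subunits, isoform sets, the highest and lowest of each complex and those that passed. 1 of these genes is not reported here by name. Members and lists were chosen with earlier results of these data known. The fits were tested on simulated data. Intervals and tests cover these libraries only.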

Additional observations from a re-analysis of the deposited data

Results flagged for a closer look

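In 5 of 88 groups of libraries examined, 1 library stood apart from the others of its group, and chance alone gives about 1 in 20. In the input of LPS animals the library of animal 267, the only male there, was the highest for Ndufs5 (1481.3 normalised counts, the others at 1282.0 to 1311.2), Uqcrq (2422.3, the others at 2062.0 to 2113.8) and Ndufaf4 (925.4, the others at 885.0 to 889.9), and for the median over complex III (-0.043 on the log2 scale relative to the input of PBS animals). In the positive fraction of LPS animals the library of animal 266, a female, was the lowest for the median over complex V (0.23).

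For 6 genes the effect of LPS differed between the positive fraction and input by the test of the difference itself. On the log2 scale the differences were 0.76 for Atp5g2, 0.56 for Uqcrq, 0.54 for Uqcr11, 0.50 for Atp5e, 0.43 for Cox8a and 0.40 for Sdhd, each larger in the positive fraction. In females alone, with 2 PBS animals, none of the 6 passed, with values of 0.30 for Sdhd to 0.70 for Atp5g2. Over all genes 54 were higher and 20 lower in that fit, beside 808 and 210 in the main fit.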

How the results depend on the processing

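Of the counts of genes that passed, 102 of 144 stayed within 1.5 times the value reported, as did 139 of 144 medians within 1 SD between libraries (0.13), and 42 counts and 5 medians moved. Of the values of single genes 10593 kept their direction and side of the threshold, 342 no longer passed, 149 passed newly and 4 reversed. The cause of these changes was not tested, except that fewer libraries or animals entered some fits. For the LPS effect in the positive fraction (4 reported), 9 passed with limma on the deposited log2 values, 7 with all 18 libraries and 10 with the length trend removed. In input (4 reported), 2 passed with limma, with no filter, with all 18 libraries or with the length trend removed, and 0 passed without animals 506 and 507 or in females alone, where the median was -0.023. All genes also gave fewer calls there. They were 1060 higher and 779 lower in the main fit, 663 and 406 without these animals and 455 and 277 in females. For the positive fraction over input in PBS animals (22 reported), 5 passed with library totals, limma or all 18 libraries, 11 without animals 506 and 507 and 8 with the length trend removed, and the median was 0.32 in females alone. In LPS animals (56 reported), 36 passed with library totals (median 0.27) and 20 with the length trend removed (median 0.15). Limma and all 18 libraries moved the median of all genes to -0.13 in PBS animals and to -0.14 and -0.12 in LPS animals. For the difference (6 reported), 3 passed with library totals or no filter, 11 with sex as a covariate, 1 without animals 506 and 507 and 0 in females alone, and the median with the length trend removed was 0.019. Over all genes the main fit gave 808 higher and 210 lower, against 264 and 59 without animals 506 and 507 and 54 and 20 in females. With the animal as replicate block 12 of the 89 passed for the difference, beside 1309 higher and 599 lower over all genes. The block moved no other count of these genes by over 1.5 times. With the length trend removed, 4 values of the positive fraction over input in LPS animals reversed, Atp5k at -0.090, Cox8a at -0.35, Ndufb2 at -0.022 and Ndufc1 at -0.066.

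Leaving out each library in turn gave 3 to 8 genes for LPS in the positive fraction (8 without the positive fraction of PBS animal 506), 1 to 10 in input (1 without the input of LPS animal 266, 10 without that of 267), 14 to 35 for the positive fraction over input in PBS animals, 53 to 60 in LPS animals and 2 to 9 for the difference (2 without the input of LPS animal 266, 9 without its positive fraction). The medians ranged from 0.07 to 0.15, -0.21 to -0.05, 0.13 to 0.28, 0.41 to 0.49 and 0.15 to 0.28. In input Ndufc1 passed without each of the 17 libraries, Ndufs5 in 12 of those fits, Cox7a1 in 10 and Uqcr11 in 5. Depth limits Cox7a1, Ndufa4l2, Cox8b and Cox8c.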
